A study of Mus musculus with 12 samples.

Results

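The nuclear genes for subunits of the mitochondrial respiratory chain and of ATP synthase were followed in T cells that had met a strong or a weak peptide in the living mouse. Members were the probe sets whose single gene symbol in the platform annotation names a subunit of complex I (the Nduf genes), complex II (Sdha to Sdhd), complex III (the Uqcr genes), complex IV (Cox4 to Cox8) or ATP synthase (the Atp5 genes). The rule reads names and no measured value. The rule found 147 probe sets for 78 of the 12394 genes that the array names by a probe set with 1 symbol. Of these, 33 genes belong to complex I, 4 to complex II, 8 to complex III, 16 to complex IV and 17 to ATP synthase. Subunits encoded by mitochondrial DNA are not taken by the rule.

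The cells were 5CC7 T cells, which carry a transgenic T cell receptor for a peptide of moth cytochrome c. Per the labels, they were placed in B10.A recipients, which got the peptide through the tail vein. The lymph nodes were pooled and the cells sorted by flow cytometry 48 h later. The 4 groups had 3 arrays each: 2 µg of MCC, 0.2 µg of MCC, 2 µg of 102S and 0.2 µg of 102S. MCC is the strong agonist of this receptor and 102S the weak one, so all groups share the receptor, the transfer and an injected peptide, and unstimulated cells were not analysed here. The labels give no age or sex of the mice, and they do not state whether replicates came from separate animals. The p-values rest on the spread among these arrays alone, part of which may be technical.

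The respiratory chain passes electrons from NADH through complex I, or from succinate through complex II, to ubiquinone, then through complex III and cytochrome c to complex IV, which reduces oxygen. Complexes I, III and IV pump protons across the inner mitochondrial membrane, and ATP synthase uses their return to make ATP in its F1 head, driven by rotation of a ring of c subunits in the membrane. T cells that are activated by antigen raise both glycolysis and mitochondrial respiration, and they build new mitochondria before and while they divide.

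Values are log2 expression per probe set, and a difference of 1 is a doubling. Probe sets with a mean under log2 4.48, the 40th percentile of the array, were not tested. This left 139 of the 147 member probe sets and 75 of the 78 genes. Ndufb1 (mean 4.45), Cox6b2 (4.24) and Cox7a1 (3.42) fell under the filter. Each gene was represented by its tested probe set of highest mean, and 42 member genes had more than 1. A gene was called when its limma p-value, adjusted by Benjamini-Hochberg over all 13556 probe sets tested, was under 0.05.

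All 9 αβ T cell markers on the array were above the filter, and their mean lay between 10.30 and 10.85 log2 on every array. Of the markers of other cells, 5 of 8 of the CD8 T and NK cell list, 4 of 8 of the B cell list, 2 of 11 of the myeloid list, 2 of 4 of the platelet list and 0 of 2 of the erythroid list were above the filter. In the CD8 T and NK cell list, Cd8b1 (mean 7.59 log2), Klrd1 (6.72), Cd8a (5.72), Prf1 (5.68) and Gzma (5.29) were above it and Gzmb, Ncr1 and Klrk1 below it, and Cd4 had 7.32. Klrd1 averaged 4.65 with 2 µg and 6.27 with 0.2 µg of MCC, and 7.33 with 2 µg and 8.63 with 0.2 µg of 102S. Of the B cell list, Ighm (10.91), Cd74 (6.58), Cd79b (5.07) and Cd22 (5.06) were above it and Ms4a1, Cd79a, Pax5 and Blk below. In all 4 groups the female-type transcript Xist was high on replicate 1 (11.72 to 12.27 log2) and low on replicates 2 and 3 (4.05 to 5.10), so replicate 1 came from another source than the other 2, and the spread within each group holds a difference between sources.

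Members moved together between arrays of the same group. The median deviation of the 75 tested genes from their 12-array mean was −0.08, 0.14 and −0.08 log2 on the 3 arrays of 2 µg of MCC and −0.11, 0.30 and 0.30 on those of 0.2 µg. For 102S it was −0.20, 0.08 and 0.12 at 2 µg and −0.29, −0.25 and 0.07 at 0.2 µg. Replicate 1 was the lowest array of every group. It was also the lowest of every group in complex IV and in ATP synthase. In complexes I, II and III replicate 3 of 2 µg of MCC lay lower than replicate 1, and in complex II so did replicate 3 of 0.2 µg of 102S.

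**Figure D1:**
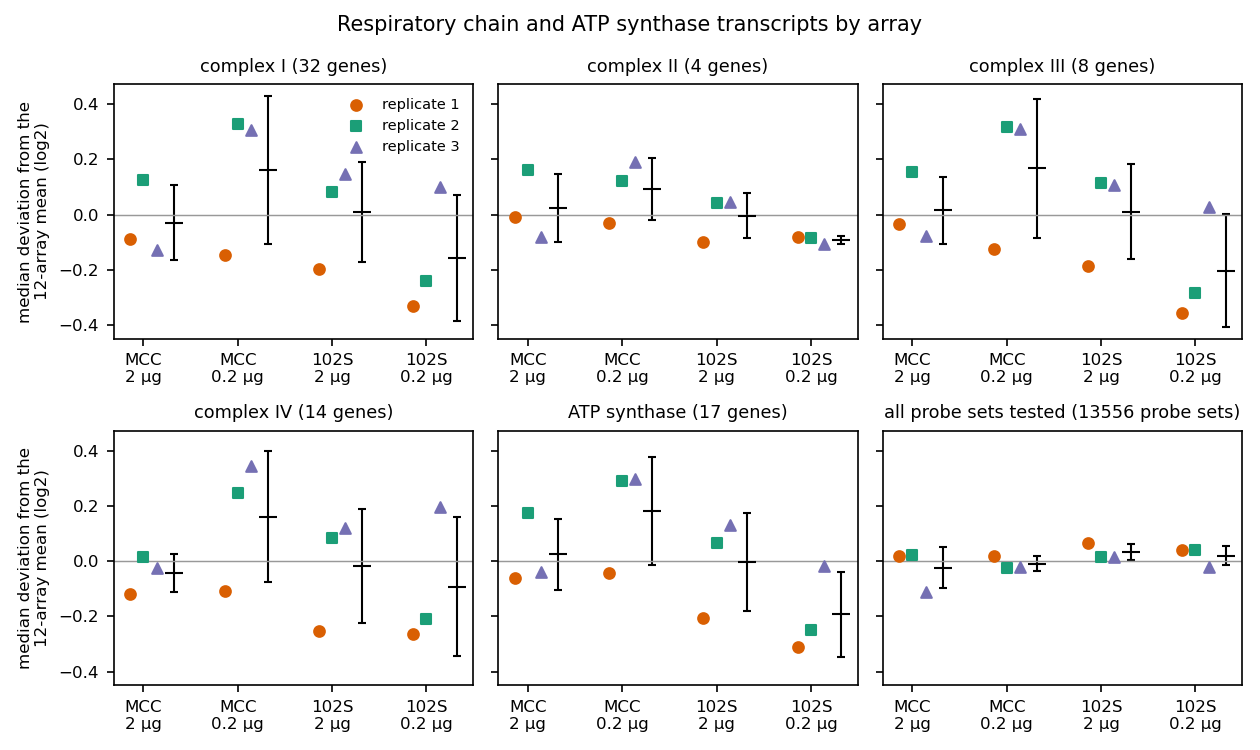
Median deviation (log2) of the tested genes of each complex, and of all 13556 probe sets tested, from their own 12-array mean, by group. Points are single arrays, coloured by replicate number, and bars are the mean ± SD over 3 arrays. The 0.2 µg MCC arrays of replicates 2 and 3 lie highest in complexes I, III and IV and in ATP synthase, replicate 1 and replicate 2 of 0.2 µg of 102S lie lowest in complexes I and III and in ATP synthase, and the panel of all probe sets stays between −0.11 and 0.06.

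A control of RNA quality moved with this level. For β-actin, the 3′ control probe set exceeds the 5′ one by more when RNA is degraded or copied incompletely. The excess was 0.50, 0.67 and 0.72 log2 after 2 µg of MCC and 0.74, 1.78 and 2.33 after 0.2 µg. For 102S it was 0.81, 1.30 and 1.62 at 2 µg and 0.76, 0.90 and 2.35 at 0.2 µg. The arrays with the largest excess were replicate 3 of both 0.2 µg groups. In both 102S groups the order of the 3 arrays was the same for β-actin and for the members. Its part in the results below was not tested, and counts with this excess as a covariate are given beside them. The excess of all arrays of 2 µg of MCC was below that of every other array. In comparisons with that group, the group and the covariate cannot be fully told apart.

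**Figure D2:**
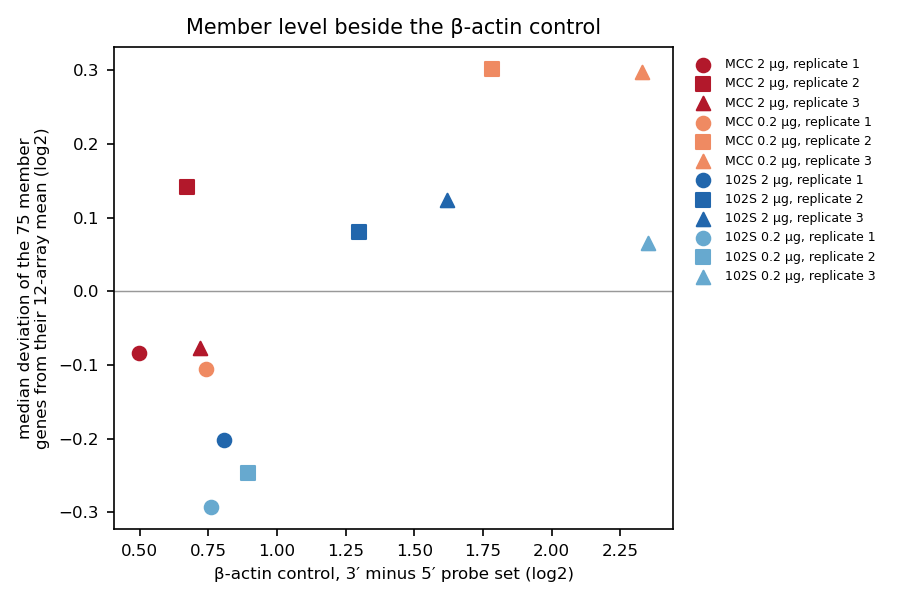
Median deviation of the 75 tested member genes from their 12-array mean (log2) against the excess of the 3′ over the 5′ probe set of β-actin (log2), 1 point per array, coloured by group and shaped by replicate number. All 5 arrays with a β-actin excess above 1 lie above 0 in the member level, and 6 of the 7 arrays below 1 lie below 0.

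At 0.2 µg, part of the subunit transcripts were higher after MCC than after 102S, with members of complexes I, III and IV and of ATP synthase among them. Of the 75 tested member genes 15 were called higher and 0 lower, and 69 had a positive difference. Over all probe sets 7.85% were called higher and 6.45% lower, and 45.4% had a positive difference. With 1 probe set for each gene, 722 of the 7945 genes tested were called higher and 558 lower. The median difference was 0.32 log2 over the members and −0.04 over all probe sets. By complex, 4 of 32 genes were called higher in complex I (median 0.31), 0 of 4 in complex II (0.20), 2 of 8 in complex III (0.34), 2 of 14 in complex IV (0.26) and 7 of 17 in ATP synthase (0.37). Within each replicate number, 62, 70 and 66 of the 75 genes were higher with MCC in replicates 1, 2 and 3, with medians of 0.18, 0.55 and 0.24 log2. Of all probe sets 46.2%, 44.8% and 48.8% were higher. The numbers are shared labels here and no shown pairing.

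The size of this count rested on single arrays. It was 36 without replicate 1, 4 without replicate 2 and 6 without replicate 3 of 0.2 µg of MCC, and 7, 6 and 29 without replicates 1, 2 and 3 of 0.2 µg of 102S. The share of all probe sets called moved as well, to 20.5%, 7.75% and 9.15% in the first 3 of these fits and to 8.48%, 8.46% and 18.2% in the others, against 14.3% on all 12 arrays. With the β-actin covariate 38 members were called higher and 2 lower, with a median of 0.26, and 26.9% of all probe sets were called. The mean of the 10 cycling-cell markers lay between 7.96 and 8.19 log2 with 0.2 µg of MCC, against 3.99 to 4.05 with 0.2 µg of 102S, and the mean of 8 genes typical of CD8 T and NK cells between 4.77 and 5.24, against 5.53 to 5.77. Their part in the result was not tested. In such bulk samples a change in the share of one kind of cell and a change in RNA per cell cannot be told apart.

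In complex I, the smallest p-values were those of Ndufv2 and Ndufs8, which are both iron-sulfur subunits. Ndufs8, which holds iron-sulfur clusters close to the ubiquinone site, had 10.28, 10.59 and 10.57 log2 with 0.2 µg of MCC, against 9.71, 9.63 and 9.98 with 0.2 µg of 102S. All 3 MCC arrays were above all 3 102S arrays, and the difference was 0.71 ± 0.13 log2 (SE, 1.64-fold, limma adjusted p = 0.00283). Of its 6 probe sets, 5 were called higher and the differences of those 5 ran between 0.69 and 0.84 log2.

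Ndufv2, an iron-sulfur subunit of the module that takes electrons from NADH, had 10.27, 10.47 and 10.32 log2 with 0.2 µg of MCC, against 9.72, 9.79 and 9.74 with 0.2 µg of 102S. The groups did not overlap, and the difference was 0.60 ± 0.11 log2 (limma adjusted p = 0.0023). The calls for Ndufs8 and Ndufv2 at this dose held under every alternative setting and without any single array.

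Ndufb6 and Ndufb9, accessory subunits of the membrane arm, were called as well. Ndufb6 had 9.57, 10.06 and 9.999 log2 with 0.2 µg of MCC, against 9.09, 9.03 and 9.53 with 0.2 µg of 102S, a difference of 0.66 ± 0.16 (limma adjusted p = 0.017). Ndufb9 had 9.89, 10.30 and 10.17 log2 with 0.2 µg of MCC, against 9.45, 9.47 and 9.72 with 0.2 µg of 102S, a difference of 0.57 ± 0.14 (limma adjusted p = 0.015). The groups did not overlap in either gene, although the replicate 1 array of MCC came close to the replicate 3 array of 102S. Both calls were lost without replicate 2 or 3 of 0.2 µg of MCC or replicate 1 or 2 of 0.2 µg of 102S. The 28 complex I genes that were not called had differences between −0.13 and 0.66.

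In complex III, the core protein Uqcrc2 had 10.62, 10.68 and 10.44 log2 with 0.2 µg of MCC, against 10.41, 10.07 and 10.01 with 0.2 µg of 102S. Replicate 3 of MCC and replicate 1 of 102S nearly met, and the difference was 0.42 ± 0.12 (limma adjusted p = 0.0353). Uqcr10, a small accessory subunit, had 9.75, 10.32 and 10.32 log2 with 0.2 µg of MCC, against 9.35, 9.45 and 9.76 with 0.2 µg of 102S, a difference of 0.61 ± 0.18 (limma adjusted p = 0.0397). Here the groups overlapped, since replicate 3 of 102S reached the level of replicate 1 of MCC. The call of Uqcrc2 was lost in 5 of the 12 fits that leave out 1 array, and that of Uqcr10 in 7. No complex II gene was called: Sdha, Sdhb, Sdhc and Sdhd, which form the whole of succinate dehydrogenase, differed by 0.02 to 0.32 log2.

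In complex IV, Cox6c, a small subunit of the enzyme's membrane part, had 11.35, 11.69 and 11.61 log2 with 0.2 µg of MCC, against 10.89, 10.92 and 11.09 with 0.2 µg of 102S. The groups did not overlap, and the difference was 0.58 ± 0.12 log2 (1.497-fold, limma adjusted p = 0.00534). It was called under every alternative setting and without any single array. Cox4i1, the common form of a subunit that binds regulatory nucleotides, had 11.78, 11.91 and 11.92 log2 with 0.2 µg of MCC, against 11.60, 11.50 and 11.65 with 0.2 µg of 102S, a smaller difference of 0.29 ± 0.08 (limma adjusted p = 0.0234) that was not called without replicate 2 or 3 of 0.2 µg of MCC or replicate 1 or 2 of 0.2 µg of 102S. The lowest difference of any tested member at this dose was that of Cox7c, at −0.50 ± 0.18 log2, which was not called (limma adjusted p = 0.0934). Cox7c had 7.005, 6.59 and 6.98 log2 with 0.2 µg of MCC, against 7.42, 7.46 and 7.21 with 0.2 µg of 102S.

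In ATP synthase, called genes came from the F1 head, the stalks and the c ring. Atp5c1, the γ subunit that turns inside the head, had 11.47, 11.65 and 11.47 log2 with 0.2 µg of MCC, against 11.15, 11.19 and 11.14 with 0.2 µg of 102S, a difference of 0.37 ± 0.08 (limma adjusted p = 0.00953). Its other probe set had a difference of −0.36, which was not called, and the mean of both gave 0.008 (limma adjusted p = 0.972). The call was also lost without replicate 2 of 0.2 µg of MCC. Atp5pb, subunit b of the outer stalk, had 11.66, 11.62 and 11.48 log2 with 0.2 µg of MCC, against 11.33, 11.19 and 11.16 with 0.2 µg of 102S, a difference of 0.36 ± 0.08 (limma adjusted p = 0.0102). Both probe sets of Atp5pb were called higher, and neither of these 2 genes had groups that overlapped. The call of Atp5pb at this dose was lost when only the 2 groups compared were fitted (limma adjusted p = 0.0595).

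Of the 3 genes that encode the same c subunit, 2 were called. Atp5g3 had 12.10, 12.38 and 12.38 log2 with 0.2 µg of MCC, against 11.71, 11.80 and 11.96 with 0.2 µg of 102S, a difference of 0.46 ± 0.11 (limma adjusted p = 0.0128). Atp5g2 had 11.03, 11.60 and 11.58 log2 with 0.2 µg of MCC, against 10.47, 10.63 and 11.09 with 0.2 µg of 102S, a difference of 0.68 ± 0.19 (limma adjusted p = 0.0344). The groups of Atp5g3 were apart and those of Atp5g2 overlapped. A second, weaker probe set of Atp5g2 had a difference of −0.22 at this dose, and the mean of both gave 0.23, which was not called (limma adjusted p = 0.298). Both genes lost their call without replicate 2 or 3 of 0.2 µg of MCC or replicate 1 of 0.2 µg of 102S, and Atp5g2 also without replicate 2 of 102S. Atp5g1, the third gene, was not called.

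Atp5j, the coupling factor 6 subunit of the outer stalk, had 10.37, 10.78 and 10.86 log2 with 0.2 µg of MCC, against 9.96, 10.15 and 10.28 with 0.2 µg of 102S, a difference of 0.54 ± 0.15 (limma adjusted p = 0.0316). Its groups did not overlap, and its call was lost without the same 4 arrays as that of Atp5g2. The δ subunit of the head, Atp5d (0.31 ± 0.09, limma adjusted p = 0.0397), and subunit g of the membrane part, Atp5l (0.31 ± 0.09, limma adjusted p = 0.0464), were the remaining called genes. Each of these 2 calls was lost under 8 of 12 alternative settings, and those of Atp5d and Atp5l in 7 and 9 of the 12 fits that leave out 1 array. The representative probe set did not decide the call for all genes: counting any probe set of a gene, 19 member genes were called higher at this dose, through other probe sets of Ndufb5, Ndufc2, Cox5a and Cox5b.

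**Figure D3:**
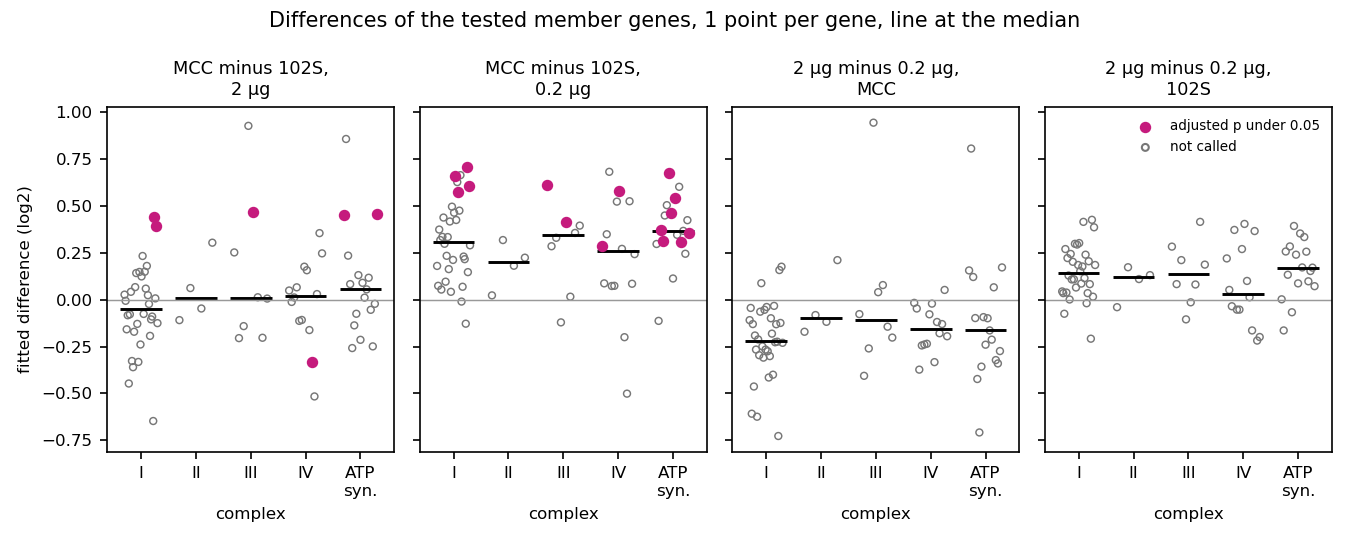
Fitted log2 difference of each of the 75 tested member genes in 4 comparisons, by complex, with a line at the median of each complex. Filled points were called at an adjusted p under 0.05. The points of the 0.2 µg peptide comparison lie mostly above 0, with 15 called, those of the 2 µg comparison lie around 0, with 6 called, and none is called in the 2 dose comparisons.

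At 2 µg, 6 of the 75 subunit genes (8.0%) were called between the peptides, no larger a share than the 10.3% of all probe sets called, and the median of the family lay near 0. Of the 6, 5 were higher with MCC and 1 lower, where 4.04% of all probe sets were called higher and 6.23% lower. The median difference was 0.01 log2 over the members and −0.04 over all probe sets. Among the members 39 genes were positive and 36 negative, and 45.1% of all probe sets were positive. Within each replicate number the direction of the median differed: 58, 45 and 18 of the 75 genes were higher with MCC in replicates 1, 2 and 3, with medians of 0.12, 0.08 and −0.19 log2. The shares of all probe sets that were higher were 47.4%, 50.98% and 40.13%, with medians of −0.019, 0.007 and −0.116 log2. The members and all probe sets thus both had their lowest median in replicate 3. With the replicate number as a block, 9 genes were called higher and 2 lower, while the calls over all probe sets came to 18.3%. A pairing of replicates 2 and 3 by number is not shown. With the β-actin covariate 23 were called higher and 2 lower, beside 24.6% of all probe sets. The β-actin excess did not overlap between these groups (0.50 to 0.72 with MCC, against 0.81 to 1.62 with 102S). The count was 3 without replicate 1 or 2 of 2 µg of MCC or of 102S, and 1 without replicate 3 of 2 µg of 102S. Between 5.16% and 7.94% of all probe sets were called in these fits. The mean of the cycling-cell markers lay between 8.43 and 8.71 log2 with 2 µg of MCC, against 6.37 to 7.26 with 2 µg of 102S. That of the CD8 T and NK cell list lay between 4.49 and 4.65, against 5.11 to 5.18, and that of the B cell list between 5.53 and 5.75, against 5.25 to 5.34. Their part in the result was not tested.

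Atp5pb had 11.73, 11.69 and 11.85 log2 with 2 µg of MCC, against 11.35, 11.33 and 11.22 with 2 µg of 102S. The arrays of the peptides were clearly apart, and the difference was 0.46 ± 0.08 log2 (1.37-fold, limma adjusted p = 0.00365). This call held under every alternative setting and without any single array. Atp5a1, the α subunit of the F1 head, had 11.29, 11.39 and 11.29 log2 with 2 µg of MCC, against 10.98, 10.85 and 10.79 with 2 µg of 102S, a difference of 0.45 ± 0.09 (limma adjusted p = 0.0101). Its call was lost without replicate 3 of 2 µg of 102S, and at 0.2 µg its difference of 0.30 ± 0.09 was not called (limma adjusted p = 0.0559). Of the 3 probe sets of Atp5a1, 1 was called at 2 µg, and their differences ran from 0.06 to 0.61 log2.

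Uqcrc2 had 10.74, 10.49 and 10.63 log2 with 2 µg of MCC, against 10.26, 10.11 and 10.08 with 2 µg of 102S, a difference of 0.47 ± 0.12 (limma adjusted p = 0.0255). Ndufv2 had 10.55, 10.67 and 10.37 log2 with 2 µg of MCC, against 9.99, 10.29 and 10.13 with 2 µg of 102S, a difference of 0.39 ± 0.11 (limma adjusted p = 0.0342). Ndufs8 had 10.69, 10.76 and 10.47 log2 with 2 µg of MCC, against 10.03, 10.25 and 10.31 with 2 µg of 102S, a difference of 0.44 ± 0.13 (limma adjusted p = 0.0476). Atp5pb, Uqcrc2, Ndufv2 and Ndufs8 were thus called higher with MCC at both doses by their representative probe sets. At 2 µg, 2 of 2 probe sets of Atp5pb were called higher, 1 of 2 of Uqcrc2, 1 of 3 of Ndufv2 and 2 of 6 of Ndufs8. The other probe sets of these genes had positive differences, down to 0.09 log2 in Uqcrc2. The differences at the 2 doses share no array, but both tests used a spread fitted over all 12 arrays. Replicate 1 also came from another source in all 4 groups, so the calls at the 2 doses are not independent. At 2 µg, the calls of Uqcrc2, Ndufv2 and Ndufs8 were lost in 4, 5 and 9 of the 12 fits that leave out 1 array.

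Cox7a2l was the 1 member called lower by its representative probe set. Its product, also known as SCAF1, joins complexes III and IV into supercomplexes. It had 11.15, 10.93 and 10.88 log2 with 2 µg of MCC, against 11.38, 11.26 and 11.31 with 2 µg of 102S, and every MCC array was below every 102S array. The difference was −0.33 ± 0.08 (limma adjusted p = 0.0237), and all 3 of its probe sets were called lower. At 0.2 µg it had 11.08, 11.15 and 11.09 log2 with MCC, against 11.33, 11.23 and 11.36 with 102S, a difference of −0.20 ± 0.08 that was not called (limma adjusted p = 0.132). The 2 µg call was lost without any 1 of the 3 arrays of 2 µg of 102S or without replicate 2 or 3 of 2 µg of MCC. Counting any probe set of a gene, 7 member genes were called at 2 µg. The added gene was Atp5g2, whose second probe set was called lower with MCC, at −0.64 log2. Its representative probe set differed by −0.075 and was not called.

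The widest differences at 2 µg were not called in the fit of all 12 arrays without block or covariate, and were called with the replicate block. Uqcrc1, the other core protein of complex III, had 8.83, 8.27 and 8.53 log2 with 2 µg of MCC, against 7.97, 7.60 and 7.28 with 2 µg of 102S, a difference of 0.93 ± 0.29 (limma adjusted p = 0.061). Within replicates 1, 2 and 3 it was 0.86, 0.67 and 1.26 log2 higher with MCC, and with the block it was called (limma adjusted p = 0.00325), as in 6 of the 12 alternative settings in all. Ndufs7, an iron-sulfur subunit of complex I, had 9.08, 9.33 and 8.91 log2 with 2 µg of MCC, against 9.47, 9.72 and 10.07 with 2 µg of 102S, a difference of −0.65 ± 0.29 (limma adjusted p = 0.197, and 0.0443 with the block). In both genes the arrays of the 2 peptides were apart. Atp5b, the catalytic β subunit, chosen here after its values were seen, was apart as well, at 11.05, 10.79 and 10.85 log2 with 2 µg of MCC, against 10.52, 9.91 and 9.68 with 2 µg of 102S (0.86 ± 0.38, limma adjusted p = 0.194, and 0.0194 with the block).

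**Figure D4:**
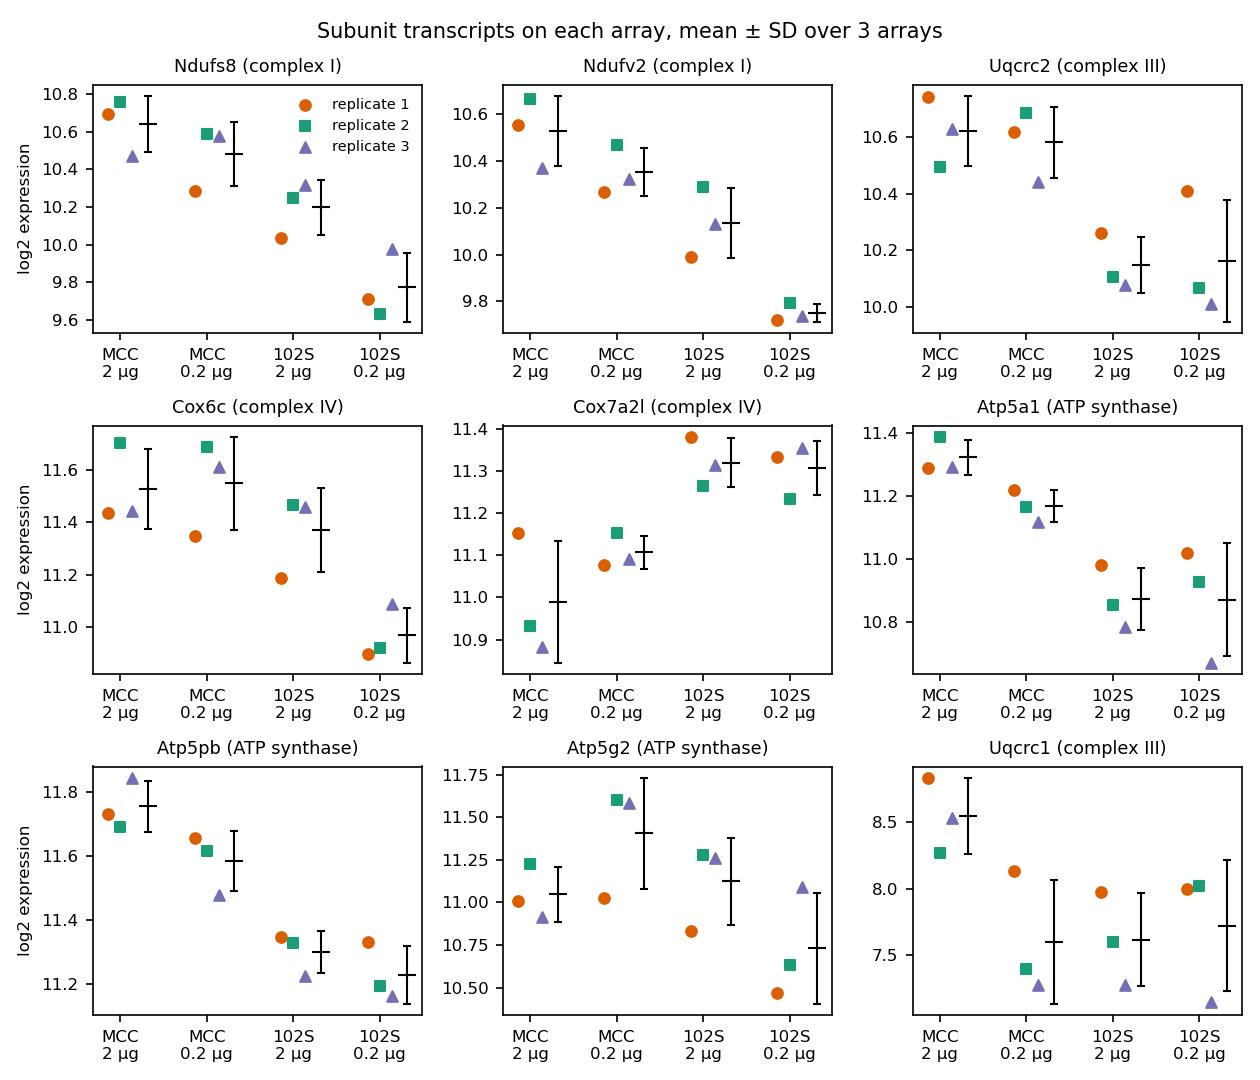
Log2 expression of 9 subunit transcripts on each array, by group, with the mean ± SD over 3 arrays. Points are coloured by replicate number, and each panel has its own vertical axis. Both MCC groups lie above both 102S groups in Atp5a1, Atp5pb and Uqcrc2 and below them in Cox7a2l, and only the 2 µg MCC arrays lie apart in Uqcrc1.

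In the fit of all 12 arrays without block or covariate, no member gene was called between the doses of either peptide by its representative probe set. For 2 µg against 0.2 µg of MCC, 0 of 75 genes were called, and 1.76% of all probe sets were called. An unadjusted limma p under 0.05 was found for 7 of the 75 genes and for 2435 of all 13556 probe sets. The median difference was −0.17 log2 over the members and −0.01 over all probe sets, with 13 genes and 48.3% of all probe sets positive. This direction was not shared by the replicate numbers: 47 of 75 genes were higher at 2 µg in replicate 1 (median 0.05), but 17 in replicate 2 (−0.16) and 12 in replicate 3 (−0.35). Of all probe sets 51.3%, 56.2% and 43.3% were higher. With the β-actin covariate the median turned to 0.09 and 1 gene was called higher, beside 4% of all probe sets. The β-actin excess did not overlap between these doses (0.50 to 0.72 at 2 µg, against 0.74 to 2.33 at 0.2 µg). With the replicate block 2 genes were called higher and 5 lower, and 11.5% of all probe sets were called. Without replicate 1 of 0.2 µg of MCC 2 were called higher and 6 lower, and 8.91% of all probe sets were called. The cycling-cell markers had means of 8.43 to 8.71 log2 at 2 µg, against 7.96 to 8.19 at 0.2 µg. Those of the CD8 T and NK cell list were 4.49 to 4.65, against 4.77 to 5.24, and the part of either list was not tested.

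Uqcrc1 had the largest difference between the MCC doses, at 8.83, 8.27 and 8.53 log2 with 2 µg, against 8.13, 7.39 and 7.28 with 0.2 µg. The arrays were apart, and the difference of 0.94 ± 0.29 was not called (limma adjusted p = 0.125). Within replicates 1, 2 and 3 it was 0.70, 0.88 and 1.26 log2 higher at 2 µg, and with the block it was called (limma adjusted p = 0.00801). It was also called with replicates 2 and 3 only and without replicate 1 of 0.2 µg of MCC. Ndufs7 had the lowest, at −0.73 ± 0.29 (limma adjusted p = 0.222, and 0.0393 with the block), with 9.08, 9.33 and 8.91 log2 at 2 µg, against 9.21, 10.03 and 10.26 at 0.2 µg. Its replicate 1 array at 0.2 µg lay among those of 2 µg. The 95% interval of the difference lay within 1 log2 of 0 for 69 of the 75 genes.

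For 2 µg against 0.2 µg of 102S, 0 of 75 genes were called, and 3.16% of all probe sets were called. An unadjusted limma p under 0.05 was found for 10 of the 75 genes and for 1757 of all 13556 probe sets. The median difference was 0.13 log2 over the members and 0.00 over all probe sets, and 61 genes and 49.4% of all probe sets were positive. In replicates 1, 2 and 3, 54, 69 and 47 of 75 genes were higher at 2 µg, with medians of 0.08, 0.32 and 0.07. Of all probe sets 50.4%, 45.9% and 56.6% were higher, and the numbers are no shown pairing here. Ndufs8 had the largest difference, at 10.03, 10.25 and 10.31 log2 with 2 µg, against 9.71, 9.63 and 9.98 with 0.2 µg (0.43 ± 0.13, limma adjusted p = 0.121). The doses did not overlap in it, and 1 of its other 5 probe sets was called higher at 0.57 ± 0.12 (limma adjusted p = 0.0204). Cox8b had the lowest difference, −0.22 ± 0.32. With the β-actin covariate 24 genes were called higher at 2 µg and 1 lower, beside 10.5% of all probe sets. Without replicate 3 of 0.2 µg of 102S 1 gene was called, beside 2.85% of all probe sets. All 75 intervals lay within 1 log2 of 0. The cycling-cell markers had means of 6.37 to 7.26 log2 at 2 µg, against 3.99 to 4.05 at 0.2 µg. Those of the CD8 T and NK cell list were 5.11 to 5.18, against 5.53 to 5.77, and those of the αβ T cell list 10.69 to 10.85, against 10.30 to 10.60. The αβ T cell markers did not move alike. Cd5 averaged 10.30 log2 at 2 µg, against 9.03 at 0.2 µg, and Cd3e 10.21, against 10.13. Only Thy1 was lower at 2 µg (11.43, against 11.64). The part of these lists was not tested.

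Whether the peptide difference depended on the dose was tested by the interaction, which subtracts the peptide difference (MCC over 102S) seen at 0.2 µg from the one seen at 2 µg. No member was called, and 0.767% of all probe sets were called. An unadjusted limma p under 0.05 was found for 9 of the 75 genes and for 1171 of all 13556 probe sets. The median was −0.34 log2 over the members, against −0.02 over all probe sets. Negative values were found for 67 of 75 genes, among them all 32 of complex I, and for 7044 of all 13556 probe sets. With the β-actin covariate the median was −0.09. Atp5g2 had the lowest value, −0.75 ± 0.27 (limma adjusted p = 0.423), with 11.01, 11.22 and 10.91 log2 after 2 µg of MCC, against 10.83, 11.28 and 11.26 after 2 µg of 102S. Uqcrc1 had the highest, 1.05 ± 0.41 (limma adjusted p = 0.465). The 95% interval was within 1 log2 of 0 for 50 genes. In this fit the peptide difference was shown to differ between the doses for no member. With the replicate block Uqcrc1 was called (limma adjusted p = 0.0489).

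Several subunits of complex IV have forms that are made mainly in certain tissues. The forms known from lung (Cox4i2), heart and skeletal muscle (Cox6a2 and Cox8b) and testis (Cox8c) passed the filter with means of 5.10, 5.49, 5.198 and 6.05 log2, and none of these 4 genes was called in any comparison. The muscle form Cox7a1 and the testis form Cox6b2 were below the filter, and Ndufa4l2 was not analysed here. The 12 arrays of Cox4i2 lay between 4.74 and 5.37 log2, those of Cox6a2 between 5.20 and 6.02, those of Cox8b between 4.72 and 5.94 and those of Cox8c between 5.62 and 6.81. Their common partners had means of 11.78 (Cox4i1), 12.43 (Cox6a1), 11.58 (Cox6b1), 11.48 (Cox7a2) and 10.33 log2 (Cox8a), and Ndufa4, a subunit of complex IV that was first assigned to complex I and is counted there by name, had 10.59. Of these, Cox4i1 was the 1 called gene. Levels of different probe sets are not comparable, so none is set against another.

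The promoters of 64 member genes, 69 in all, were found in a RefSeq table of the mouse assembly GRCm38.p6 that gives 250 bases before to 50 after each start. They were searched on both strands for the core letters of 3 factors known to bind promoters of respiratory genes: GCATGCG for nuclear respiratory factor 1 (NRF1), CCGGAAG for ETS factors such as GABP, and GATGGCG for YY1. NRF1 letters were in 10 member promoters (14.5%), ETS letters in 17 (24.6%) and YY1 letters in 9 (13.0%), and 28 (40.6%) held at least 1 of the 3. Among the 8351 promoters of genes with a tested probe set, the shares were 6.79%, 18.8%, 6.65% and 28.8%, and among all 32851 promoters listed there 3.58%, 8.86%, 3.49% and 14.5%. A match is a run of letters, not a shown binding site.

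The stretch of 130 bases before to 30 after the start is shown, 5′ to 3′ on the strand of the gene, for 6 of the called genes. In this stretch they hold the letters of an ETS site (Ndufs8), of NRF1 (Atp5g2) and of ETS and YY1 (Atp5j), or none of the 3 (Ndufv2, Atp5pb and Cox7a2l). NRF1 letters of the same Atp5j promoter lie outside the stretch. Promoters of Cox6c, Uqcrc2 and Cox4i1, also called, were not among those found. The capitals mark the letters found.
Ndufs8, chr19:3912745-3912904, minus strand: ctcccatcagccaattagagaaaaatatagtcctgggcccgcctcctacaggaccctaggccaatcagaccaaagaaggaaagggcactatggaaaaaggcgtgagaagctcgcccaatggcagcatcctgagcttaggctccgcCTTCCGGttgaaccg
Atp5g2, chr15:102671018-102671177, minus strand: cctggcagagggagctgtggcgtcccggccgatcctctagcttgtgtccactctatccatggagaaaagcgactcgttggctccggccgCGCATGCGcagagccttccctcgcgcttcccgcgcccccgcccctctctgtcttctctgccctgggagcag
Atp5j, chr16:84834947-84835106, minus strand: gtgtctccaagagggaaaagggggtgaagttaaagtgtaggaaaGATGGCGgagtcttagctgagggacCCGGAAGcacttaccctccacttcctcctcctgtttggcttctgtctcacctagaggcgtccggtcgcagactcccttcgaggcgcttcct
Ndufv2, chr17:66101530-66101689, minus strand: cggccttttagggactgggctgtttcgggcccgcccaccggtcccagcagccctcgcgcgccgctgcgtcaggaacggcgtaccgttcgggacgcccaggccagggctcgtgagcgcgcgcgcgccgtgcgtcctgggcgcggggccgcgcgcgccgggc
Atp5pb, chr3:105959234-105959393, minus strand: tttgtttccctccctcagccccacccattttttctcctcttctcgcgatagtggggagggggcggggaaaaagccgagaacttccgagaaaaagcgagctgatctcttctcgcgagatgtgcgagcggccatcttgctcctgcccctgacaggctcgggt
Cox7a2l, chr17:83514304-83514463, minus strand: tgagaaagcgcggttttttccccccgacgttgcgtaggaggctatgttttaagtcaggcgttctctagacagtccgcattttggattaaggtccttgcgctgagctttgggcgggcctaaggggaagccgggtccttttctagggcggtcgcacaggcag
Atp5g2 and Atp5j were called higher with MCC at 0.2 µg, Ndufs8, Ndufv2 and Atp5pb at both doses, and Cox7a2l was called lower at 2 µg, so called genes are found both with and without these letters. The NRF1 letters of Atp5g2 overlap on the 2 strands. Atp5j has a second promoter in the table, without a match, and the one with matches is shown.

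Genes that work with the complexes were described from lists of their own, to be read beside the shares of all probe sets called higher and lower with MCC, which were 7.85% and 6.45% at 0.2 µg and 4.04% and 6.23% at 2 µg. Calls of 1 or 2 genes of a list are given as values of those genes and not of the list. Among 13 tested electron carriers and subunits that the rule does not take, 2 were called higher with MCC at 0.2 µg and 0 lower, and 1 was called higher at 2 µg. Atpif1, the inhibitor that stops ATP synthase from running in reverse, had 8.89, 9.59 and 9.30 log2 with 0.2 µg of MCC, against 7.41, 7.37 and 8.06 with 0.2 µg of 102S. The groups were far apart, and the difference was 1.65 ± 0.22 log2 (limma adjusted p = 0.000276), wider than that of any member at this dose. Atpif1 was also higher with 2 µg than with 0.2 µg of 102S, by 1.02 ± 0.22 (limma adjusted p = 0.0217), a call lost in 4 of the 12 fits that leave out 1 array. Etfb, which carries electrons from fatty acid oxidation to ubiquinone, was higher with MCC at 0.2 µg by 0.91 ± 0.19 (limma adjusted p = 0.00703), and its partner Etfa at 2 µg by 0.69 ± 0.17 (limma adjusted p = 0.0239), a call lost without any 1 of the 6 arrays compared. With the replicate block, Atpif1 was called higher with MCC at 2 µg as well (0.64, limma adjusted p = 0.0178), and Etfa with 2 µg over 0.2 µg of MCC (0.43, limma adjusted p = 0.0395). Cytochrome c (Cycs) and Cyc1 of complex III were not called in any comparison in the fit without block or covariate.

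Among 31 tested assembly factors, 7 were called higher with MCC at 0.2 µg and 0 lower, and at 2 µg 1 was called higher and 1 lower. At 2 µg 11 differences were positive and 20 negative, with a median of −0.14 log2, and at 0.2 µg 21 were positive and 10 negative, with a median of 0.13. Tmem126a, an assembly factor of complex I, had 9.15, 9.68 and 9.47 log2 with 0.2 µg of MCC, against 7.97, 7.99 and 8.23 with 0.2 µg of 102S (1.37 ± 0.15, limma adjusted p = 6.36e-05). It was also higher with MCC at 2 µg (0.75 ± 0.15, limma adjusted p = 0.00797) and with 2 µg than with 0.2 µg of 102S (1.02 ± 0.15, limma adjusted p = 0.00206). Sdhaf1, which helps to insert iron-sulfur clusters into complex II, had 9.62, 9.79 and 9.79 log2 with 0.2 µg of MCC, against 8.33, 8.54 and 8.78 with 0.2 µg of 102S (1.18 ± 0.14, limma adjusted p = 0.00013). No gene of complex II itself was called. Acad9 (0.75 ± 0.19, limma adjusted p = 0.0177), an assembly factor of complex I, was called at 0.2 µg but not without replicate 2 or 3 of 0.2 µg of MCC. Sco2, which delivers copper to complex IV, was the gene called lower with MCC at 2 µg (−0.74 ± 0.18, limma adjusted p = 0.0242), a call lost without any 1 array of 2 µg of 102S or without replicate 3 of 2 µg of MCC. For 2 µg against 0.2 µg of 102S 4 assembly factors were called higher, where 3.16% of all probe sets were called, and for MCC 0, or Tmem126a with the replicate block (0.41, limma adjusted p = 0.0351).

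Of 7 tested genes for mitochondrial exchange of adenine nucleotides and phosphate, outer membrane channels and uncoupling, 2 were called higher with MCC at 2 µg and 4 at 0.2 µg, and all 7 differences were positive at each dose. The ADP/ATP exchanger Slc25a4 differed by 0.65 ± 0.11 at 2 µg (limma adjusted p = 0.00339) and by 0.64 ± 0.11 at 0.2 µg (limma adjusted p = 0.00207). The exchanger Slc25a5 differed by 0.45 ± 0.10 (limma adjusted p = 0.0106) and 0.43 ± 0.10 (limma adjusted p = 0.00974), and the outer membrane channel Vdac1 by 0.54 ± 0.09 at 0.2 µg (limma adjusted p = 0.00231). Of 12 genes of the cristae, the folds that hold the complexes, 1 was called higher at 2 µg and 2 at 0.2 µg. Of their differences 3 were positive and 9 negative at 2 µg (median −0.04 log2), and 7 were positive and 5 negative at 0.2 µg (0.15). Apool differed by 0.46 ± 0.12 at 2 µg and 0.60 ± 0.12 at 0.2 µg (limma adjusted p = 0.0292 and 0.00528). The 2 µg call of Apool was lost in 5 of the 12 fits that leave out 1 array.

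Of 18 tested regulators of mitochondrial gene expression, 0 were called higher in any comparison by limma. In the peptide comparisons 2 were called lower with MCC at 2 µg and 1 at 0.2 µg. Ppargc1b, a coactivator of genes for mitochondrial proteins, had 5.55, 5.34 and 4.09 log2 with 2 µg of MCC, against 6.66, 6.41 and 6.70 with 2 µg of 102S (−1.60 ± 0.29, limma adjusted p = 0.00501). It was lower with 2 µg than with 0.2 µg of MCC too (−1.46 ± 0.29, limma adjusted p = 0.0276), a call lost without replicate 2 or 3 of 0.2 µg of MCC. Replicate 3 of 2 µg of MCC was below the filter level. The related coactivator Pprc1 was lower with MCC at 0.2 µg (−1.35 ± 0.35, limma adjusted p = 0.0238), and the mitochondrial RNA polymerase Polrmt at 2 µg (−0.57 ± 0.17, limma adjusted p = 0.0478), calls that were lost in 4 and 9 of the 12 fits that leave out 1 array. The median difference of this list was −0.18 log2 at 2 µg and −0.28 at 0.2 µg.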

How the data were processed

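Transcripts were measured on Affymetrix mouse arrays in 12 samples, 3 for each of 2 peptides at 2 doses. The deposited table gave 22690 probe sets a log2 value on each array, from 1.86 to 14.7. GCOS 1.4 is named per the submitters' processing notes, but the sources used here do not give the probe summary, background correction or scaling. Array medians differed by 0.089 log2, below the limit of 0.15 above which quantile normalization would have been used, so the deposited log2 values were kept.

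Symbols came from the platform annotation: 20393 probe sets had 1, 691 several and 1606 none. Matching probe sets with several symbols, 7 in number, were left out. All 147 member probe sets had an entry in a RefSeq gene table of GRCm38.p6, which changed 0 symbols. Affymetrix controls (64) and probe sets under the 40th percentile of the mean were left out of the tests, and 13556 remained.

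Values were fitted with lmFit and eBayes (intensity trend, 4 group means, 8 residual degrees of freedom, all 12 arrays) of limma 3.58.1 in R 4.3.3. Tests were 2-sided. A ± value beside a difference is its standard error. The number of arrays limits the precision. The fit was tested on simulated data. Members, lists and tests were chosen with earlier results of these data known, so the counts and medians of the lists carry no test.

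Named were the called members of each complex (at most 4 by p per comparison), members called in several comparisons, the highest and the lowest member of each comparison, the isoforms of complex IV, and up to 3 called genes of each other list; Atp5b, Atp5d and Atp5l were added after their values were seen. Across probe sets, same-numbered arrays deviated together for MCC against 102S at 2 µg (r = 0.60, 0.20 and 0.24 for replicates 1, 2 and 3). They did so for the dose of MCC (r = 0.56, 0.20 and 0.22), and the numbers were taken to pair the arrays there. Some arrays of unlike number agreed as much. Replicate 2 of 2 µg of 102S had r = 0.246 with replicate 3 of 2 µg of MCC. Replicate 3 of 2 µg of MCC had r = 0.218 with replicate 2 of 0.2 µg. Only replicate 1 stood apart, so a pairing of replicates 2 and 3 is not shown. The alternatives were median centring, quantile normalization, other filters, no intensity trend, a replicate block, only the groups compared, a β-actin covariate, replicates 2 and 3 only, the mean over a gene's probe sets and leaving out each array. A block with the covariate, and leaving out the 2 arrays of highest β-actin difference, were added after seeing the data.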

Additional observations from a re-analysis of the deposited data

Results flagged for a closer look

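Sdhaf1, an assembly factor of complex II, was the 1 gene among the members and their related lists called for the interaction in the main fit, which had no block or covariate. It had 9.36, 9.55 and 9.08 log2 with 2 µg of MCC, against 9.34, 9.51 and 9.50 with 2 µg of 102S, and 9.62, 9.79 and 9.79 with 0.2 µg of MCC, against 8.33, 8.54 and 8.78 with 0.2 µg of 102S. The interaction was -1.296 ± 0.20 log2 (limma adjusted p = 0.00915) and was called under all 10 alternatives that could be computed for it and without any single array, with adjusted p-values between 0.000731 and 0.0407.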

How the results depend on the processing

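Of the 21 named calls on member genes, 4 were kept under all 12 alternatives and without any single array: Ndufs8, Ndufv2 and Cox6c at 0.2 µg and Atp5pb at 2 µg. Counts of called members for MCC against 102S at 2 µg and 0.2 µg were 3 and 8 without the intensity trend, 25 and 40 with the β-actin covariate, 2 and 23 with replicates 2 and 3 only, and 27 and 44 with the replicate block and the covariate. In the same order, 9.72% and 13.5%, 24.6% and 26.9%, 5.69% and 11%, and 18.1% and 30.8% of all probe sets were called. The count at 0.2 µg was 5 when only the groups compared were fitted (7.9% of all probe sets). That at 2 µg was 2 with the mean over a gene's probe sets (10.3%). For the dose of MCC, 1 member was called with the covariate, 5 with replicates 2 and 3 and 2 with block and covariate, beside 4%, 4.36% and 1.65% of all probe sets. The dose of 102S gave 25 with the covariate, 30 with block and covariate, and 1 when the 2 arrays with the highest β-actin excess were left out. Beside these, 10.5%, 14.4% and 2.82% of all probe sets were called. The median for the dose of MCC turned to 0.092 with the covariate and 0.127 with block and covariate, and that of the interaction moved to -0.088 and -0.044. Under block and covariate 2 uncalled differences turned and were called: Atp5g2 at 2 µg (0.216, limma adjusted p = 0.0473) and Cox6b1 for the dose of MCC (0.344, limma adjusted p = 0.0463). The cause of these moves was not tested.

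With the replicate block alone the counts were 11 and 38 for the peptides at 2 µg and 0.2 µg, 7 and 6 for the doses of MCC and 102S, and 1 for the interaction. In the same order, 18.3%, 25.8%, 11.5%, 6.11% and 2.37% of all probe sets were called. At 0.2 µg and for the dose of 102S the numbers are shared labels and no shown pairing: same-numbered arrays correlated at r = 0.79, -0.29 and 0.66, and at r = 0.80, -0.06 and 0.65. Over all groups 9 of 12 arrays were closest to arrays of their own number, as a hint from the data.

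Leaving out each array in turn gave 1 to 7 called members at 2 µg (median -0.084 to 0.053), 4 to 36 at 0.2 µg (0.239 to 0.467), 0 to 8 for the dose of MCC (-0.295 to -0.093), 0 to 1 for that of 102S (0.090 to 0.256) and 0 to 0 for the interaction (-0.498 to -0.264). The share of all probe sets called moved as well. It was 5.16% in the fit with 1 called member at 2 µg and 11.6% and 11.8% in those with 7. In the fits with 4 and 36 at 0.2 µg it was 7.75% and 20.5%. The fit with 8 for the dose of MCC had 8.91%, and that with 1 for the dose of 102S 2.85%.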
